A study of Mus musculus with 12 samples.

Results

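Schwann cells are the glia of peripheral nerves, and in the pancreas they follow nerve fibres into the islet and form a sheath around it. Schwann cells in health wrap or accompany axons, and after nerve injury they are known to leave that state, switch on Jun and other repair genes, and secrete trophic factors. Described here are 6 genes commonly used to mark these cells, of 48709 genes in the table: Sox10, Foxd3, Ngfr, Gfap, Cdh19 and S100b. They were chosen by name, as textbook Schwann cell genes, and not by a measured value, but with earlier results of these data known. None of them is exclusive to Schwann cells. Ngfr and Gfap are also known from pancreatic stellate cells, and S100b from other glia.

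The genes were read in 12 RNA sequencing libraries of pancreatic islets from female mice of genotype NSG RIP-DTR Htz, 3 in each of 4 groups. NSG mice lack mature T, B and natural killer cells and keep macrophages and neutrophils. In RIP-DTR mice the rat insulin promoter drives a receptor for diphtheria toxin, so that beta cells die when the toxin is given, and Htz is read here as heterozygous. The controls (CTRL) carried the same transgene and were untreated, and the other groups were given diphtheria toxin (DT) and carry the labels 1, 3 or 5 DPA, taken here to mean days post-ablation. The sources used here give no ages. Since CTRL mice received no treatment, the toxin itself and the loss of beta cells cannot be told apart. The labels do not say whether libraries came from separate mice, so that the p-values rest on a spread between libraries that may be technical.

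Library totals ran from 29867083 to 50012558 counts, and all 6 genes passed the filter on low counts that left 17294 genes to test. Member counts ranged from 48 for S100b in 1 library to 3695 for Ngfr in another. The islet label was borne out by the beta cell markers, whose 10 genes summed to 106774 to 207912 CPM (counts made comparable between libraries by TMM scaling) in the 12 libraries. Of these 10 genes edgeR called 8 lower than CTRL at 1 DPA, 3 at 3 DPA and 5 at 5 DPA and 0 higher, with median log2 fold changes of -0.40, -0.35 and -0.37. Over all tested genes 22.4%, 2.37% and 2.67% were called lower at these times. Libraries hold whole islets, and CPM and TPM are shares of a library. A change in Schwann cell number, in RNA per Schwann cell or in the RNA that other cells contribute therefore cannot be told apart. The part of lower beta cell RNA in the results was not tested.

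In the mouse genome (GRCm38, GENCODE annotation) the genes lie apart from one another except for a shared chromosome of Ngfr and Gfap. Ngfr spans chr11:95568818-95587735 on the minus strand and Gfap chr11:102887336-102900912, also minus. Sox10 spans chr15:79154908-79165240 (minus), Foxd3 chr4:99656299-99658622 (plus), Cdh19 chr1:110888326-110977584 (minus) and S100b chr10:76253853-76261159 (plus). An S100b exon overlaps Dip2a, a gene on the opposite strand that averaged 34.2 to 40.8 CPM in the 4 groups. An exon of Gfap overlaps the antisense lincRNA Gm26668, which had 3 to 14 counts per library. The sources used here do not say whether counting used strand, so reads of these overlapping genes cannot be told apart.

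Promoter sequence was available from RefSeq (GRCm38.p6) for Ngfr, Foxd3, Gfap and S100b. The runs of 3 of these genes are printed here because Ngfr changed most, Foxd3 changed less and S100b was not called in any comparison. Each is the sequence from 250 bases before the RefSeq start, 5′ to 3′ on the strand of the gene, and the Ngfr run stops where the first GENCODE exon begins, 37 bases before that start. Capitals mark matches to GGGCGG, the core of the GC box that Sp1 family factors bind.

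Ngfr, chr11:95587736-95587948, minus strand: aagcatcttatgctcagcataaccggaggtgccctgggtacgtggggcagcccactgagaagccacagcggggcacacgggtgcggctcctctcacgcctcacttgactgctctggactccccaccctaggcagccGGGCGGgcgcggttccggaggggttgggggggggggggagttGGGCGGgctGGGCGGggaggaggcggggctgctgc
Foxd3, chr4:99656049-99656298, plus strand: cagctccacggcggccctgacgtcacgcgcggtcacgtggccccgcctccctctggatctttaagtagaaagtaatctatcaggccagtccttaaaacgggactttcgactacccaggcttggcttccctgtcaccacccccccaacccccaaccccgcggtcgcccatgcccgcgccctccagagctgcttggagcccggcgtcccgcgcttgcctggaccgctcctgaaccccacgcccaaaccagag
S100b, chr10:76253586-76253835, plus strand: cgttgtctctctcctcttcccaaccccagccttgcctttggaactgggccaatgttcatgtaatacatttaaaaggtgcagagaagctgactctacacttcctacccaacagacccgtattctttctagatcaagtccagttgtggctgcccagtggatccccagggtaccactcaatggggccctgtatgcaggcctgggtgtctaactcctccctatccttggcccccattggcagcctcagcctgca

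The search covered both strands for ACAAAG and ACAATG, which are cores bound by Sox factors, TGANTCA, the site of AP-1 dimers that contain Jun, and GGGCGG. Among the 4 genes only the Ngfr window held a match to any of them, with 4 matches to GGGCGG over its full 250 bases, 3 of them in the run above. The shares of 32851 RefSeq promoters of that length with at least 1 match were 32.7% for GGGCGG, 16.5% for ACAAAG, 10.7% for ACAATG and 6.75% for TGANTCA. The Ngfr window was 70.4% G and C, that of Foxd3 65.6%, Gfap 55.6% and S100b 53.6%, against a median of 52.4% over all of these promoters. A match is a description of letters, and these data do not measure binding there.

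Described first is Sox10, the transcription factor that neural crest cells and all Schwann cells need. Sox10 stood at 13.6, 12.7 and 9.58 CPM in CTRL replicates 1 to 3 and at 9.75, 13.1 and 12.1 CPM at 1 DPA. It then stood at 17.5, 16.6 and 14.3 CPM at 3 DPA and at 30.3, 20.3 and 18.6 CPM at 5 DPA. The 1 DPA libraries overlapped CTRL, while every library of 3 and of 5 DPA lay above every CTRL library. At 5 DPA Sox10 rose from 11.96 ± 2.10 CPM in CTRL to 23.1 ± 6.33 CPM (mean ± SD, n = 3), a log2 fold change of 0.95 ± 0.19 (SE; edgeR adjusted p = 0.0141).

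Foxd3, a forkhead factor of neural crest and glial precursors, followed a like course at lower levels. Its CTRL libraries had 6.97, 8.64 and 4.86 CPM and those of 1 DPA 6.06, 7.13 and 7.64 CPM. At 3 DPA it had 9.08, 11.1 and 8.86 CPM and at 5 DPA 20.4, 12.8 and 12.97 CPM. Each of the 3 and 5 DPA libraries was above the highest CTRL library, by a small margin at 3 DPA. The rise at 5 DPA was 1.17 ± 0.23 on the log2 scale (edgeR adjusted p = 0.0113).

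Ngfr, the low-affinity neurotrophin receptor p75, which Schwann cells are known to raise after nerve injury, changed most among the 6 genes. It had 14.8, 11.9 and 12.7 CPM in CTRL and 8.78, 10.2 and 12.1 CPM at 1 DPA. At 3 DPA it had 37.1, 28.2 and 29.4 CPM and at 5 DPA 70.2, 38.6 and 45.1 CPM. The groups separated into a low pair (CTRL and 1 DPA, which overlap) and a high pair, and every 5 DPA library exceeded every 3 DPA library. Against CTRL, Ngfr rose 2.41-fold at 3 DPA (log2 1.27 ± 0.21, edgeR adjusted p = 0.00237) and 3.91-fold at 5 DPA (1.97 ± 0.22, adjusted p = 0.000911). At 5 DPA 2.78% of the genes tested had a larger log2 fold change than Ngfr.

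Gfap encodes an intermediate filament of astrocytes and of non-myelinating Schwann cells. Its levels were 4.55, 5.79 and 3.93 CPM in CTRL and 4.16, 4.38 and 5.04 CPM at 1 DPA. They were 8.08, 7.13 and 7.44 CPM at 3 DPA and 15.2, 12.3 and 6.70 CPM at 5 DPA. All 3 and 5 DPA libraries lay above CTRL, and the 5 DPA libraries were spread more widely than those of any other group, with replicate 3 below all of 3 DPA. The rise at 5 DPA was 1.26 ± 0.25 on the log2 scale (edgeR adjusted p = 0.0122).

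Cdh19, a cadherin of Schwann cell precursors and adult Schwann cells, was the lowest of the 6 per unit of length. CTRL libraries had 2.57, 2.81 and 1.95 CPM and 1 DPA libraries 2.01, 3.11 and 2.03 CPM. At 3 DPA the levels were 3.39, 3.79 and 2.67 CPM and at 5 DPA 6.08, 4.72 and 4.0 CPM. Replicate 3 of 3 DPA lay within the CTRL range, and all 5 DPA libraries lay above it. The rise at 5 DPA was 1.02 ± 0.24 on the log2 scale (edgeR adjusted p = 0.0265).

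S100b, a calcium-binding protein of glia, was the exception. It had 2.08, 2.71 and 1.89 CPM in CTRL, 1.32, 2.06 and 1.78 CPM at 1 DPA, 1.61, 2.15 and 1.71 CPM at 3 DPA and 3.19, 2.14 and 2.10 CPM at 5 DPA. The groups overlapped, apart from 5 DPA against 1 DPA. At 5 DPA against CTRL the log2 fold change was 0.16 ± 0.25 (edgeR adjusted p = 0.757), with a 95% interval of -0.34 to 0.65. That interval does not show that S100b was unaltered, and it lies below the estimates of the other 5 genes.

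**Figure D1:**
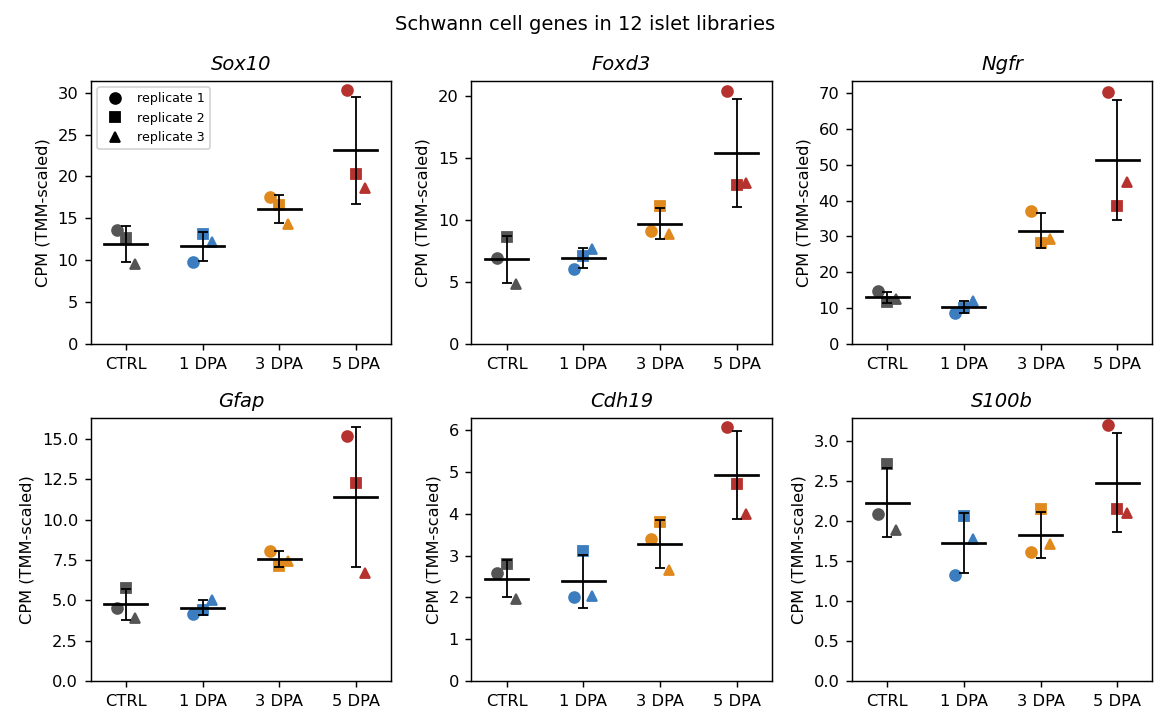
Each panel plots 1 gene, with the group on the horizontal axis and the level in CPM (TMM-scaled) on the vertical axis from 0; points are libraries marked by replicate, and bars give the mean ± SD of 3 libraries. Sox10, Foxd3, Ngfr, Gfap and Cdh19 are highest at 5 DPA, where replicate 1 is the top library of all 12 for each of the 6 genes, while S100b overlaps between CTRL and 5 DPA.

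At 1 DPA against CTRL edgeR called 0 of 6, as did DESeq2 (0) and limma-voom (0), and 0 had an unadjusted p under 0.05, in a comparison where 51.6% of all tested genes were called, 29.2% higher and 22.4% lower. The estimates for Sox10 (-0.03), Foxd3 (0.03), Gfap (-0.07) and Cdh19 (-0.03) lay near 0 on the log2 scale, with SE of 0.19 to 0.25. Ngfr was at -0.35 ± 0.22 (edgeR adjusted p = 0.203) and S100b at -0.37 ± 0.26 (adjusted p = 0.239), with 95% intervals of -0.77 to 0.08 and -0.87 to 0.13 that do not show either gene to be unaltered. No gene of the 6 had all 1 DPA libraries above, or all below, CTRL, against 31.1% and 23.5% of tested genes.

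At 3 DPA edgeR called 1 of 6 higher than CTRL, Ngfr, where 10.2% of all tested genes were called higher and 2.37% lower. Across all genes 1772 were called higher and 410 lower, a split that became 1659 and 814 when the 50 most abundant genes were left out of the library sizes and 1958 and 942 with DESeq2. The other estimates were 0.43 ± 0.19 for Sox10 (edgeR adjusted p = 0.192), 0.51 ± 0.23 for Foxd3 (0.191), 0.67 ± 0.25 for Gfap (0.113), 0.42 ± 0.24 for Cdh19 (0.320) and -0.29 ± 0.25 for S100b (0.545). Sox10, Foxd3, Gfap and Ngfr had all 3 libraries above all CTRL libraries, which 17.9% of tested genes had. Gfap was called without 5 DPA replicate 3 (adjusted p = 0.0218).

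At 5 DPA edgeR called 5 of 6 higher than CTRL, where 5.87% of all tested genes were called higher and 2.67% lower. The same 5 genes, all but S100b, had every 5 DPA library above every CTRL library, against 16.5% of tested genes. The median log2 fold change of the 6 was 1.09, beside 0.01 for all tested genes. These calls leaned on replicate 1 of 5 DPA: without it Ngfr and Foxd3 were called and Sox10 (0.71, edgeR adjusted p = 0.0509), Gfap (1.00, 0.0557) and Cdh19 (0.84, 0.119) were not. The Cdh19 call also ended without CTRL replicate 2 (0.0555), CTRL replicate 3 (0.0834) or 5 DPA replicate 2 (0.0538). With the fit restricted to the 6 libraries compared, Ngfr alone was called, with the fold changes of the other 4 nearly as before (0.94 to 1.26) and adjusted p of 0.0726 to 0.0916.

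**Figure D2:**
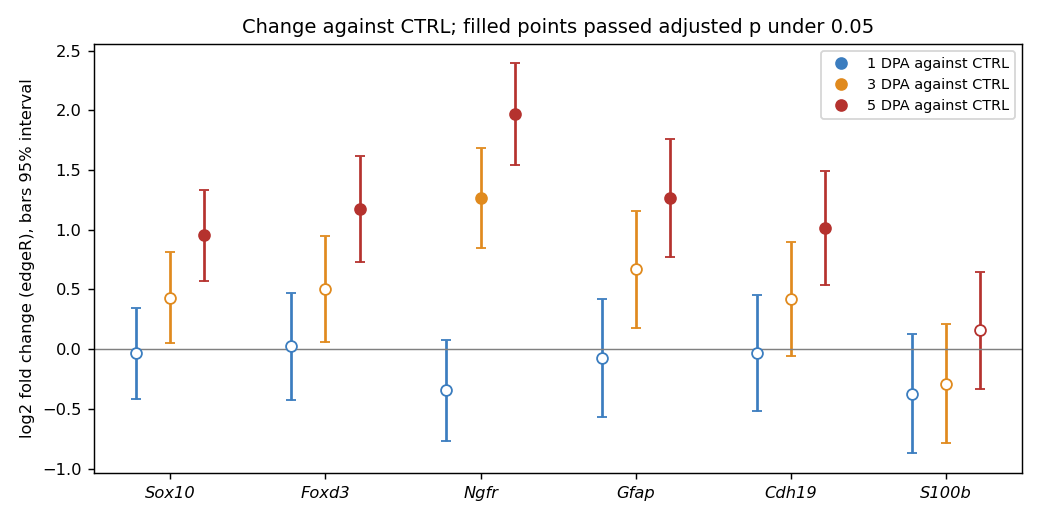
The vertical axis gives the log2 fold change of each gene against CTRL and the horizontal axis the genes, with 1 point each for 1, 3 and 5 DPA; bars are 95% intervals from the SE, and filled points passed an edgeR adjusted p under 0.05. Ngfr is filled at 3 and 5 DPA (1.27 and 1.97), Sox10, Foxd3, Gfap and Cdh19 at 5 DPA only, and S100b at no time.

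The injured groups were also compared with one another. From 1 to 3 DPA edgeR called 2 of 6 genes higher, where 20.4% of tested genes were called higher and 24.7% lower: Ngfr (log2 fold change 1.61 ± 0.22, adjusted p = 0.000172) and Gfap (0.74 ± 0.25, adjusted p = 0.0314). Gfap lost that call with limma-voom (0.0795) and without 1 DPA replicate 1 or 2 or any single library of 3 DPA (0.0530 to 0.0943). Sox10 was at 0.47 ± 0.19 (adjusted p = 0.0699), and it passed with only the 2 groups in the fit (0.0164), as did Foxd3 (0.0194). Sox10 also passed without CTRL replicate 3 (0.0486) or 5 DPA replicate 1 (0.0277). Sox10, Foxd3, Ngfr and Gfap had all 3 DPA libraries above all 1 DPA libraries, which 30.0% of tested genes had.

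From 1 to 5 DPA edgeR called 5 of 6 higher, where 26.3% of tested genes were called higher and 29.8% lower. The log2 fold changes were 0.99 ± 0.19 for Sox10 (adjusted p = 0.00124), 1.15 ± 0.23 for Foxd3 (0.00124), 2.31 ± 0.22 for Ngfr (1.12e-05), 1.34 ± 0.25 for Gfap (0.000886) and 1.05 ± 0.24 for Cdh19 (0.00340). All 6 genes had every 5 DPA library above every 1 DPA library, against 32.2% of tested genes, S100b by the narrowest margin (0.53 ± 0.25, adjusted p = 0.0964). These 5 calls held under each alternative analysis and with each library left out in turn. Markers of other cells were called higher between the same times, namely 11 of 11 for macrophages, 11 of 14 for stellate cells, fibroblasts and pericytes, 9 of 10 for endothelium and 7 of 12 for nerve fibres and neurons, and their part in the rise of the 5 genes was not tested.

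From 3 to 5 DPA edgeR called 0 of 6, although 5 had an unadjusted p under 0.05 (DESeq2 called 1 and limma-voom 0), where 0.705% of tested genes were called higher and 2.46% lower. All 6 estimates were positive, from 0.45 ± 0.25 for S100b to 0.70 ± 0.21 for Ngfr (edgeR adjusted p = 0.103), and DESeq2 called Ngfr (adjusted p = 0.0174). Sox10, Foxd3, Ngfr and Cdh19 had all 5 DPA libraries above all of 3 DPA, which 12% of tested genes had. Over the 4 groups together, edgeR's F-test called 5 of 6 genes, where 57.4% of tested genes were called. Ngfr had the smallest adjusted p (1.70e-05), followed by Gfap (0.00163), Foxd3 (0.00195), Sox10 (0.00249) and Cdh19 (0.00703), and S100b was not called (0.235).

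Levels were compared between genes in the authors' TPM, which accounts for gene length. In CTRL the order was Sox10 at 9.51 ± 1.56 TPM (SD, n = 3), Ngfr at 8.27 ± 1.30, Foxd3 at 6.29 ± 1.43, S100b at 3.22 ± 0.425, Gfap at 2.42 ± 0.336 and Cdh19 at 1.23 ± 0.174. Sox10 overlapped Ngfr and Ngfr overlapped Foxd3 over the libraries, and the lower neighbours did not overlap. The order at 1 DPA was the same, from Sox10 at 11 ± 2.62 TPM to Cdh19 at 1.41 ± 0.391, and there S100b and Gfap overlapped as well. At 3 DPA Ngfr stood first at 21.4 ± 4.05 TPM, ahead of Sox10 at 13.8 ± 1.76, and Gfap at 4.16 ± 0.413 stood ahead of S100b at 2.85 ± 0.378, with no overlap between any neighbours. At 5 DPA that order held, with Ngfr at 35.5 ± 13.5 TPM, Sox10 at 20.3 ± 6.60, Foxd3 at 15.8 ± 5.30, Gfap at 6.41 ± 2.63, S100b at 3.97 ± 1.20 and Cdh19 at 2.73 ± 0.711. At that time only Foxd3 and Gfap, among neighbours, did not overlap.

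A ratio of counts within a library removes library size and scaling, and each gene was therefore also set against Sox10 of the same library, a measure chosen after values were seen and described without a test. The ratio of Ngfr to Sox10 counts was 0.932 to 1.32 in CTRL, 0.775 to 0.995 at 1 DPA, 1.70 to 2.12 at 3 DPA and 1.90 to 2.42 at 5 DPA. At 3 and 5 DPA it lay above every CTRL library, which held for 4.09% and 1.49% of 16645 genes set against Sox10 in the same way. Ngfr thus went from about level with Sox10 to well above it, already at 3 DPA.

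The ratios of Foxd3, Gfap and Cdh19 to Sox10 overlapped those of CTRL at each time. For Cdh19 the ratio was 0.190 to 0.221 in CTRL and 0.200 to 0.232 at 5 DPA, and for Foxd3 it was 0.507 to 0.679 and 0.629 to 0.695. Gfap ran from 0.335 to 0.455 in CTRL and from 0.359 to 0.605 at 5 DPA. The ratio of S100b was 0.153 to 0.213 in CTRL and 0.105 to 0.112 at 5 DPA. It lay wholly below CTRL at 5 DPA, but so did 72.2% of the 16645 genes, and this is no mark of S100b.

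**Figure D3:**
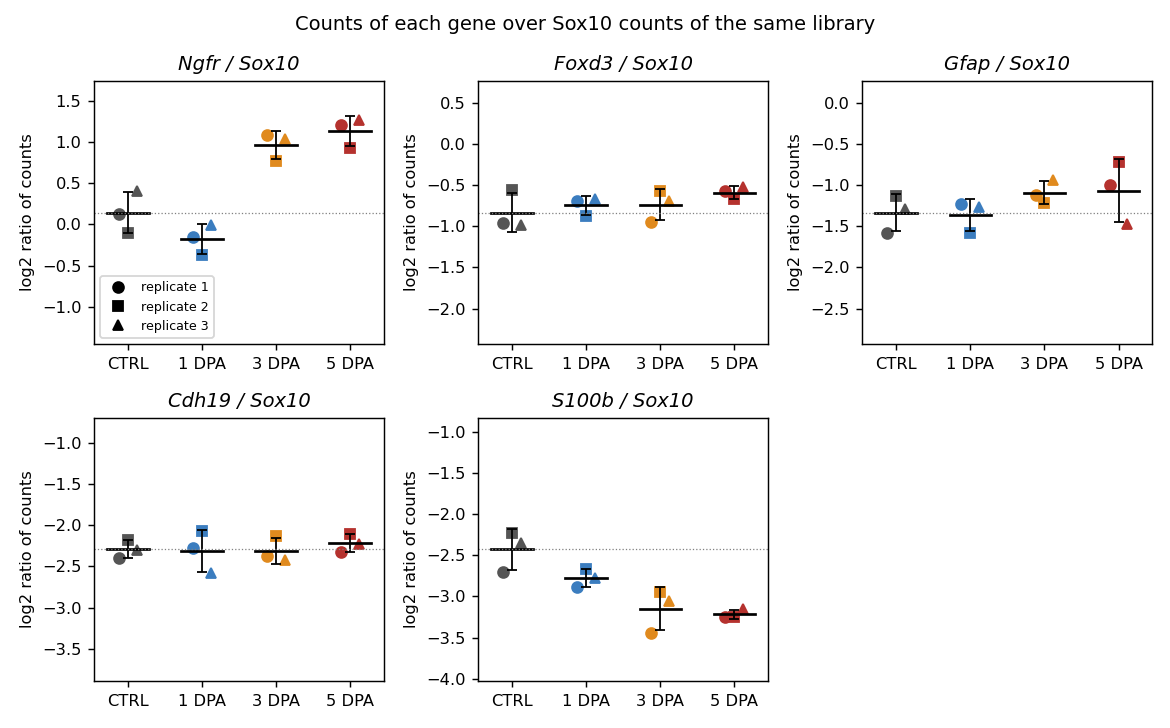
Each panel plots the log2 ratio of 1 gene's counts to Sox10 counts (vertical axis) by group (horizontal axis), with points for libraries; the dotted line is the CTRL mean and the vertical range is equal in all panels. Ngfr moves from 0.932 to 1.32 times Sox10 in CTRL to 1.90 to 2.42 times at 5 DPA, while Foxd3, Gfap and Cdh19 overlap CTRL at every time.

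The genes whose pattern was most like each of the 6 were taken by Pearson r of log2 CPM over the 12 libraries, among 13708 tested genes, as a description, since libraries share the group differences and the stroma content given further on. For Sox10 these were Lgi4 (r = 0.98), Foxd3 and Cdh19 (0.96 each). Lgi4, a secreted ligand that Schwann cells make for axon sorting and myelination, was also most like Cdh19 (0.96) and near Foxd3 (0.95). With group means removed, the r of Lgi4 with Sox10 was 0.94 over the same 12 libraries. Lgi4 had a log2 fold change of 1.23 against CTRL at 5 DPA (edgeR adjusted p = 0.00664).

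Ngfr had other nearest genes: the heparan sulfate proteoglycan Gpc1 (r = 0.98), Ercc6l and Cd109 (0.97 each). At 5 DPA against CTRL the log2 fold changes were 1.16 for Gpc1 (edgeR adjusted p = 0.00419), 1.76 for Ercc6l (0.00662) and 1.81 for Cd109 (0.00639), and the Gpc1 call ended with only the 2 groups in the fit (0.0505). The genes most like Gfap were Frem1 (r = 0.94), Gpr153 and Plekhb1 (0.93 each), and Frem1 (0.96) was also near Foxd3. For S100b they were Plce1 (r = 0.89), Nat8l (0.87) and Hand2 (0.86), none of them called at 5 DPA against CTRL. No gene was shared between the nearest genes of S100b or of Ngfr and those of the other members.

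Other Schwann cell genes were called in both directions. Of 16 further genes of Schwann cells and satellite glia, 1 was called higher and 5 lower than CTRL at 1 DPA, 0 higher and 1 lower at 3 DPA and 2 higher and 0 lower at 5 DPA. Their median log2 fold changes were -0.20, 0.07 and 0.31, beside -0.05, -0.01 and 0.01 for all tested genes. From 1 to 5 DPA 9 of the 16 were higher and 0 lower, where 26.3% of tested genes were higher and 29.8% lower. The neural cell adhesion gene Ncam1 fell at 1 DPA (log2 fold change -0.37 ± 0.07, edgeR adjusted p = 0.00125), as did the lipid-binding Fabp7 (-0.81 ± 0.17, adjusted p = 0.00183). Sox2, a factor of immature and injured Schwann cells, rose at 5 DPA (1.98 ± 0.43, adjusted p = 0.0184). It had 0.702, 0.240 and 0.488 CPM in CTRL and 2.81, 1.55 and 1.27 CPM at 5 DPA.

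Erbb3, the neuregulin receptor through which axons keep Schwann cells alive, was the other gene called at 5 DPA, at 0.64 ± 0.15 (edgeR adjusted p = 0.0265). Its CTRL libraries had 17.6, 15.6 and 14.4 CPM and its 5 DPA libraries 30.1, 24.5 and 19.7 CPM, without overlap. Of 7 neuregulin and ErbB genes it was the only one called against CTRL at 5 DPA, none was at 3 DPA (0 by edgeR, DESeq2 or limma-voom, 2 at unadjusted p under 0.05), and the ligand Nrg1 was lower at 1 DPA (-0.95 ± 0.25, adjusted p = 0.00801). The calls of Sox2 and Erbb3 at 5 DPA both ended without 5 DPA replicate 1 (adjusted p = 0.0900 and 0.117), without CTRL replicate 2 (0.0622 and 0.0932) and without CTRL replicate 3 (0.0509 and 0.0864). Erbb3's also ended without 5 DPA replicate 2 (0.0575), and with only the 2 groups in the fit both ended (0.0817 and 0.0968).

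Peripheral myelin genes went both ways, with 3 of 14 tested genes higher and 3 lower at 1 DPA, 1 and 0 at 3 DPA and 1 and 1 at 5 DPA, and medians of -0.30, -0.09 and 0.10. At 1 DPA 29.2% of all tested genes were called higher and 22.4% lower, so that this list was not above the background. Ncmap, a myelin membrane protein gene, rose at 1 DPA (log2 fold change 1.73 ± 0.25, edgeR adjusted p = 0.000113). Egr2, the factor that drives myelination and also an immediate early gene of many cell types, rose at 3 DPA (5.55 ± 0.60, adjusted p = 0.000295), from 0.244 to 2.68 CPM in the CTRL libraries to 42.3 to 104 CPM.

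The list of repair Schwann cell genes, known from cut nerves, had 3 of 10 tested genes called higher at 1 DPA, 6 at 3 DPA and 6 at 5 DPA, and 0 lower at each time (edgeR). Over all tested genes 29.2%, 10.2% and 5.87% were called higher at these times, so that the share at 1 DPA was near the background. Its median log2 fold changes were 0.45, 2.04 and 1.63. At 5 DPA the calls of Btc (edgeR adjusted p = 0.0711), Lif (0.0762) and Runx2 (0.0973) ended with only the 2 groups in the fit, and that of Runx2 at 3 DPA ended in 10 of 19 alternative analyses (up to 0.147 without 3 DPA replicate 1). Btc, Lif and Runx2 are named here for that loss, after their values were seen. Jun, the AP-1 factor that governs the repair state and is induced by stress in most cells, stood at 214, 131 and 161 CPM in CTRL and at 1521, 838 and 1095 CPM at 3 DPA. Its log2 fold change was 2.77 ± 0.23 at 3 DPA (edgeR adjusted p = 3.49e-05) and 1.69 ± 0.22 at 5 DPA (adjusted p = 0.00226). Gdnf, a trophic factor for neurons, rose from 0.754, 0.696 and 0.554 CPM in CTRL to 6.82, 3.05 and 2.95 CPM at 5 DPA (2.68 ± 0.36, adjusted p = 0.00185). Ucn2, a peptide of the corticotropin-releasing family, had 0, 0.0240 and 0.0887 CPM in CTRL and 2.59, 4.04 and 3.77 CPM at 1 DPA (6.35 ± 0.62, adjusted p = 5.95e-06). The cells that made these transcripts were not identified.

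**Figure D4:**
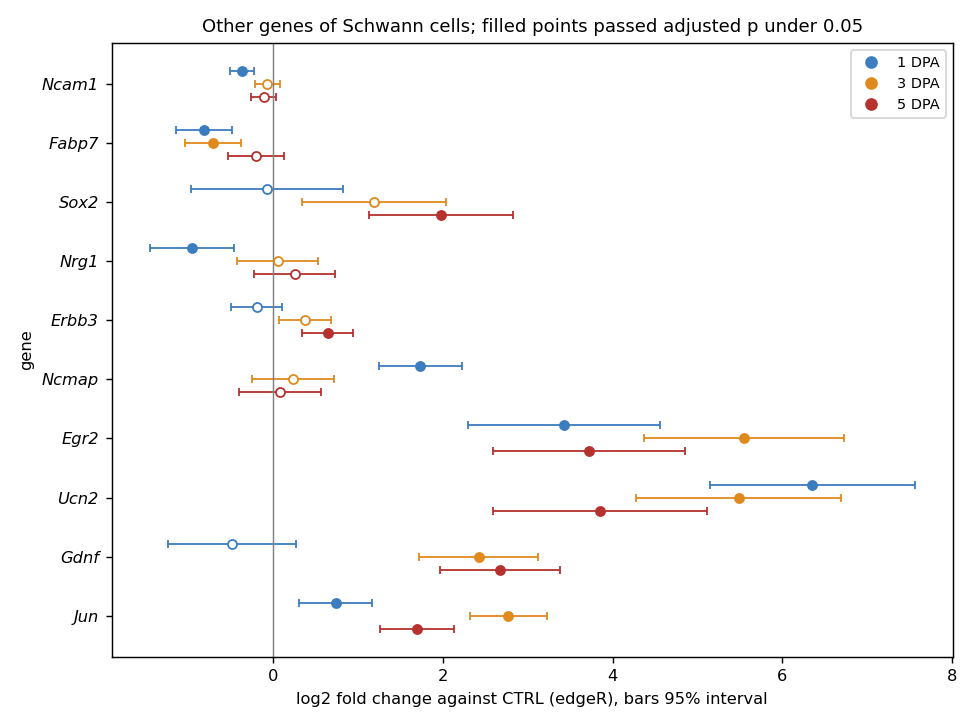
The vertical axis holds the named genes of the Schwann cell, neuregulin, myelin and repair lists, and the horizontal axis their log2 fold change against CTRL with its 95% interval; points are 1, 3 and 5 DPA, and filled points passed an edgeR adjusted p under 0.05. Jun lies at 2.77 at 3 DPA and Gdnf at 2.68 at 5 DPA, while Erbb3 stays closer to 0, at 0.64 at 5 DPA.

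Around Ngfr, the neurotrophins and the proteins that pair with the receptor gave 2 of 13 tested genes higher and 4 lower at 1 DPA, 1 and 1 at 3 DPA and 0 and 1 at 5 DPA, with medians of -0.08, 0.08 and -0.04. Over all tested genes 51.6% were called at 1 DPA, so that the share of this list was near the background. Sortilin, Sort1, the co-receptor with which Ngfr binds pro-neurotrophins, fell at 1 DPA (log2 fold change -0.65 ± 0.07, edgeR adjusted p = 1.49e-05). It was at -0.29 ± 0.07 at 3 DPA (adjusted p = 0.0186) and -0.37 ± 0.07 at 5 DPA (0.0102), the last ending without 5 DPA replicate 1 (0.0535). Maged1, an adaptor of the receptor's intracellular part, fell at 1 DPA (-0.42 ± 0.10, adjusted p = 0.00335) and the kinase Ripk2, another, rose (0.43 ± 0.10, adjusted p = 0.00360). The ligand gene Bdnf, named here as a ligand, was not called at 5 DPA, at 0.67 ± 0.33 (edgeR adjusted p = 0.233). Bdnf had 0.546 to 1.20 CPM in CTRL, 1.16 to 1.87 at 1 DPA and 1.01 to 1.71 at 5 DPA. At 3 DPA it had 1.48 to 1.92 CPM, wholly above CTRL, which 17.9% of tested genes were. Over the 4 groups edgeR's F-test did not call Bdnf (adjusted p = 0.0847). In CTRL Sort1 averaged 331 CPM and Maged1 1394 CPM, beside 13.1 CPM for Ngfr. Which cells made the transcripts of these partner genes was not tested.

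A list of relatives of Sox10 and Foxd3 and other neural crest regulators had 0 of 8 tested genes higher and 3 lower at 1 DPA (DESeq2 called 3 and limma-voom 0). At 3 DPA 0 were called by edgeR, DESeq2 or limma-voom (1 at unadjusted p under 0.05). With medians of -0.61, 0.24 and 0.59 at 1, 3 and 5 DPA, the list had 2 genes called higher at 5 DPA. The 2 were Tfap2a (log2 fold change 2.47 ± 0.54, edgeR adjusted p = 0.0184), which keeps Schwann cell precursors immature, and Msx1 (1.06 ± 0.29, adjusted p = 0.0447). Tfap2a was scarce, at 0.312, 0.144 and 0.133 CPM in CTRL and 1.77, 0.873 and 0.607 CPM at 5 DPA, and its call ended without 5 DPA replicate 1 (0.0911), CTRL replicate 2 (0.0729) or CTRL replicate 3 (0.0642). The Msx1 call ended without any single library of 1 or 3 DPA, CTRL replicate 2 or 3, or 5 DPA replicate 1 or 3 (0.0583 to 0.169). Zeb2 fell at 1 DPA (-0.92 ± 0.30, adjusted p = 0.0285), but was not called when CTRL replicate 1 or 2, or 1 DPA replicate 1 or 3, was left out (0.0571 to 0.0974) or with limma-voom (0.0958). With only the 2 groups in the fit the calls of Tfap2a (0.0704), Msx1 (0.168) and Zeb2 (0.0890) ended, as did those of Msx1 (0.0586) and Zeb2 (0.0573) with the replicate number as a block.

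Genes related to S100b and to Gfap by family were counted in the same way. In the S100 family 5 of 8 tested genes were lower at 1 DPA, among them S100a11 (log2 fold change -0.74 ± 0.08, edgeR adjusted p = 1.58e-05), 0 were called at 3 DPA by edgeR, DESeq2 or limma-voom (3 at unadjusted p under 0.05) and 1 was higher at 5 DPA, with medians of -0.53, 0.36 and 0.46. At 5 DPA DESeq2 called 4 of the 8, limma-voom called 3, and 5 had an unadjusted p under 0.05. The gene that edgeR called higher at 5 DPA was S100a10, at 0.44 ± 0.12 (edgeR adjusted p = 0.0435), a call that ended in 12 of 19 alternative analyses, with adjusted p up to 0.185 without 5 DPA replicate 1. Among 9 intermediate filament genes related to Gfap 3 were lower at 1 DPA and 0 were called at 3 or 5 DPA by edgeR, DESeq2 or limma-voom (1 and 0 at unadjusted p under 0.05), with medians of -0.62, 0.00 and 0.17. The 3 were Synm (-0.72 ± 0.22), Nefl (-0.62 ± 0.19) and Vim (-1.14 ± 0.40). Without 1 DPA replicate 1 all 3 calls ended (edgeR adjusted p = 0.0683, 0.0697 and 0.0959). That of Synm also ended without CTRL replicate 1 (0.0620) or 1 DPA replicate 3 (0.0548), that of Nefl without CTRL replicate 3 (0.0504) and that of Vim in 12 of 19 alternative analyses, with adjusted p up to 0.135 without CTRL replicate 1. Gfap itself was at -0.07 at 1 DPA and rose at 5 DPA. From 1 to 5 DPA edgeR called 6 of the 8 S100 genes and 6 of the 9 intermediate filament genes higher, with medians of 1.09 and 0.81, beside 1.34 for Gfap and 0.53 for S100b. Whether the families and the members differed in course was not tested.

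Some markers of stellate cells, fibroblasts and pericytes and most of those of macrophages were called lower at 1 DPA, where 0 of the 6 genes were called. A few of each list were called higher at 5 DPA, where 5 of the 6 genes were. The median log2 fold changes of these 2 lists against CTRL were -1.06 and -1.37 at 1 DPA, beside -0.05 for the 6 genes. At 5 DPA they were 0.74 and 0.90, beside 1.09 for the 6 genes. The 14 markers of stellate cells, fibroblasts and pericytes summed to 824 to 2593 CPM in CTRL, 880 to 1009 at 1 DPA, 1674 to 2386 at 3 DPA and 3346 to 5400 at 5 DPA, with no marker at 0 in any library. Of these 14 genes 4 were lower than CTRL at 1 DPA, 0 were called at 3 DPA by edgeR, DESeq2 or limma-voom (1 at unadjusted p under 0.05) and 3 were higher at 5 DPA. DESeq2 and limma-voom called 9 and 3 of them at 1 DPA and 7 and 5 at 5 DPA, and 6 and 8 had an unadjusted p under 0.05. From 1 to 5 DPA edgeR called 11 of the 14 higher. The 6 Schwann cell genes summed to 34.9 to 44.6 CPM in CTRL, 32.1 to 40.7 at 1 DPA, 64.4 to 76.8 at 3 DPA and 89.5 to 145 at 5 DPA. Replicate 1 of 5 DPA was the highest library for both sums. CTRL replicate 3 had the lowest stromal sum of all libraries, 824 CPM against 2593 and 1934 in CTRL replicates 1 and 2, and its Ngfr level of 12.7 CPM lay between theirs (14.8 and 11.9). Its levels of 4 of the 6 genes were the lowest of the 12 libraries, at 9.58 CPM for Sox10, 4.86 for Foxd3, 3.93 for Gfap and 1.95 for Cdh19. The part of stromal content in these results was not tested.

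The 11 macrophage markers summed to 147 to 607 CPM in CTRL, 108 to 132 at 1 DPA, 238 to 407 at 3 DPA and 659 to 908 at 5 DPA, with 9 genes lower at 1 DPA, 0 called at 3 DPA by edgeR, DESeq2 or limma-voom (0 at unadjusted p under 0.05) and 2 higher at 5 DPA. DESeq2 and limma-voom called 11 and 4 of them at 1 DPA and 3 and 3 at 5 DPA, and from 1 to 5 DPA edgeR called all 11 higher. Their part in the results was not tested. At 5 DPA, where 5 of the 6 genes were called, edgeR called 0 of 10 endothelial markers and 0 of 12 markers of nerve fibres and neurons. DESeq2 called 2 and 1 of these and limma-voom 0 and 0, and 2 of each list had an unadjusted p under 0.05. In other comparisons more were called: at 1 DPA 6 endothelial and 3 nerve markers were lower than CTRL, and from 1 to 5 DPA 9 and 7 were higher (edgeR). Their part in the results was not tested.

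The 12 acinar markers summed to 46913, 82485 and 12668 CPM in the CTRL libraries, 6167 to 61899 at 1 DPA, 5339 to 15641 at 3 DPA and 9358 to 36561 at 5 DPA, so that libraries of 1 group differed widely. Their median log2 fold changes against CTRL were -0.48, -2.14 and -1.17. edgeR called 0 of the 12 at each time, DESeq2 called 7 at 3 DPA and 0 at the other times, and limma-voom called 0 at each time. At 3 DPA 7 had an unadjusted p under 0.05 and at 1 and 5 DPA 0. Of 8 duct markers edgeR called 2 lower at 1 DPA and 0 at 3 and 5 DPA (2 and 1 at unadjusted p under 0.05; DESeq2 1 and 0, limma-voom 0 and 0). The part of acinar and duct content in the results was not tested. Melanocytes, which also express Sox10, had their pigment enzyme genes Tyr and Tyrp1 at 0 to 13 and 0 to 1 counts per library, and the 7 melanocyte markers summed to 18.0 to 22.5 CPM in CTRL, 19.5 to 28.7 at 1 DPA, 19.3 to 28.4 at 3 DPA and 18.5 to 24.7 at 5 DPA.

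**Figure D5:**
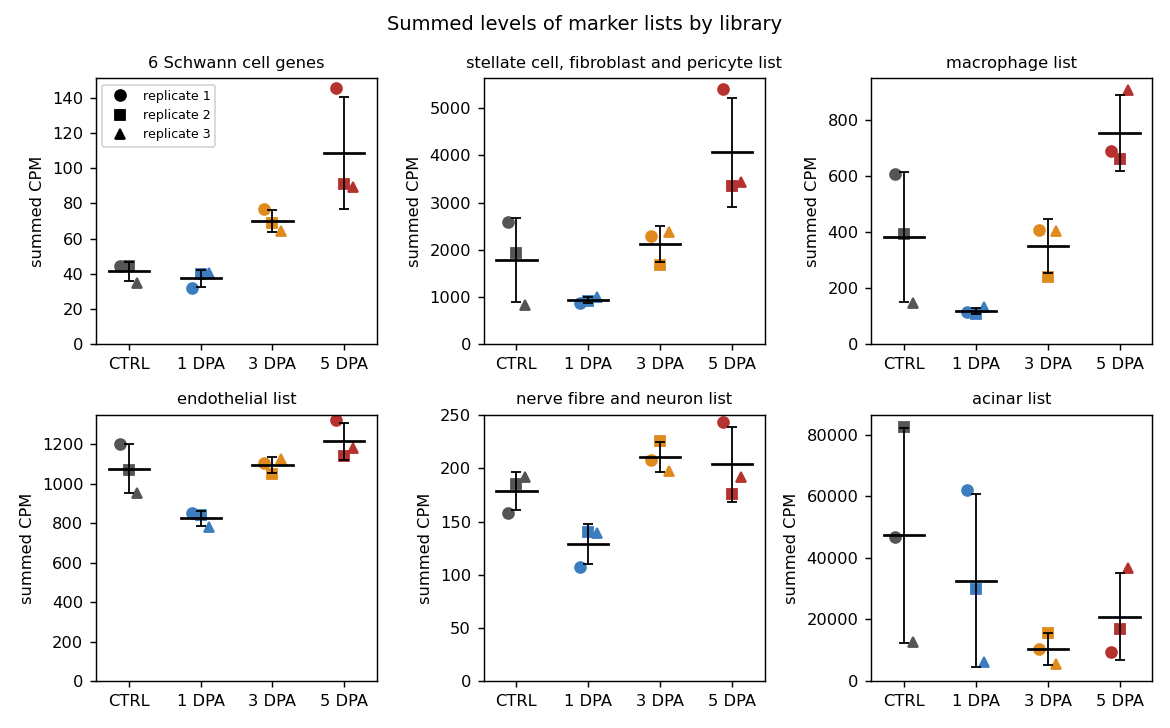
Each panel plots the summed CPM of a marker list (vertical axis from 0) by group (horizontal axis), with points for libraries and bars for the mean ± SD of 3. The Schwann cell sum of 89.5 to 145 CPM and the stromal sum of 3346 to 5400 CPM are both highest at 5 DPA, and replicate 1 is the top library in both.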

How the data were processed

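Per the labels, RNeasy Mini columns were used to extract islet RNA, from which QIAseq stranded mRNA libraries were made. The table deposited by the authors gives, per the file headers, a whole-number count and a TPM value for each gene in each library. Per the submitters' processing notes the genome was mm10; the aligner, counter, annotation and use of strand in counting are not given in the sources used. Another 24 columns of per-sample values, in other units, were left aside.

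Counts passed through filterByExpr (minimum count 10) and TMM scaling, and edgeR's quasi-likelihood model took all 12 libraries with 1 mean per group. A gene was called when its p, adjusted by Benjamini-Hochberg over 17294 genes, was under 0.05. Standard errors came from the F statistic, and 95% intervals from those errors. CPM used TMM-scaled library sizes. The deposited TPM served only to order genes by level. All comparisons with CTRL share its 3 libraries. Comparisons between injured groups share libraries in the same way.

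The 6 genes, the other gene lists and the tests were chosen with earlier results of these data known. Named genes were the 6, up to 3 called genes of smallest p per list, and the 3 nearest genes to each by Pearson r (average log2 CPM at least 0, prior count 2, clone-named genes left out). A few genes of these lists are not reported here. Bex3 and Itgam were not matched by symbol. Coordinates came from GENCODE M21. The fit was tested on simulated counts. Replicates differed by far more than sampling noise, so none was counted as a duplicate.

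The labels number replicates 1 to 3 in each group. Deviations from the group means correlated above 0.1 in all 3 same-number pairs of 3 and 5 DPA (0.156 to 0.326) and in no other pair of groups. The lowest r was -0.465, for replicate 3 of CTRL and 5 DPA. Libraries of different number were not correlated, so these values cannot show whether the numbers pair libraries. Alternatives were 2 other tools (DESeq2 1.42.0 and limma-voom, limma 3.58.1), RLE factors, leaving the 50 most abundant genes out of library sizes, no filter on low counts, a fit of only the 2 groups in question, the replicate block, and leaving out each library. R was version 4.3.3 and edgeR 4.0.16.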

Additional observations from a re-analysis of the deposited data

Results flagged for a closer look

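The tests between injured groups found changes between times in 5 of the 6 genes. From 1 to 3 DPA the log2 fold change was 1.61 for Ngfr and 0.74 for Gfap. From 1 to 5 DPA it was 2.31 for Ngfr, 1.34 for Gfap, 1.15 for Foxd3, 1.05 for Cdh19 and 0.99 for Sox10. Each is the test of the difference between the 2 times itself (edgeR, adjusted p under 0.05). CTRL levels cancel from the fold change, but the CTRL libraries enter the scaling and the shared estimate of spread behind the p-value. Over all tested genes 20.4% were called higher from 1 to 3 DPA and 26.3% from 1 to 5 DPA. The Gfap call from 1 to 3 DPA ended in 6 of 19 alternative analyses, among them limma-voom (adjusted p = 0.0795).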

How the results depend on the processing

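The number of the 6 genes called under other analyses was as in the report except in these cases. At 5 DPA against CTRL it was 1 with only the 2 groups compared, against 5, and 2 to 5 with single libraries left out. At 3 DPA against 1 DPA it was 1 with limma-voom and 4 with only the 2 groups compared, against 2, and 1 to 3 with libraries left out. At 5 DPA against 3 DPA it was 1 with DESeq2, against 0. At 3 DPA against CTRL leaving out libraries gave 1 to 2. The replicate block changed no count: 0, 1 and 5 genes at 1, 3 and 5 DPA against CTRL, 2 and 5 at 3 and 5 DPA against 1 DPA and 0 at 5 against 3 DPA.

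Some values that were not called changed sign, and the cause was not tested. At 1 DPA against CTRL the log2 fold change of Cdh19 was 0.025, 0.077 and 0.015 without CTRL replicate 2, 1 DPA replicate 1 and 1 DPA replicate 3 (range with libraries left out -0.273 to 0.077). That of Foxd3 was -0.027 without the 50 most abundant genes, and -0.003, -0.170, -0.104 and -0.027 without CTRL replicates 1 and 3, 1 DPA replicate 3 and 3 DPA replicate 1 (range -0.170 to 0.179). Gfap was at 0.044 without CTRL replicate 2 (range -0.208 to 0.044), and Sox10 at 0.024 and 0.080 without CTRL replicate 1 and 1 DPA replicate 1 (range -0.171 to 0.080). S100b was at -0.075 and -0.048 at 3 against 1 DPA without 1 DPA replicate 1 and 3 DPA replicate 2 (range -0.075 to 0.233), and at -0.070 at 5 DPA against CTRL without 5 DPA replicate 1 (range -0.070 to 0.311).

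Over all genes, calls at 5 DPA against CTRL numbered 1477, against 2400 with DESeq2, 622 with only the 2 groups, and 462 without 5 DPA replicate 1, 823 without 5 DPA replicate 3, 726 without CTRL replicate 2 and 745 without CTRL replicate 3. At 5 against 3 DPA they numbered 547, against 1177 with DESeq2, 899 with only the 2 groups, 340 with the replicate block and 31 to 1018 with libraries left out. At 3 DPA against CTRL they numbered 2182, against 1372 without 3 DPA replicate 1. S100b had 48 to 168 counts per library, and its differences from CTRL have an SE of 0.25 to 0.26 on the log2 scale.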
